A study of Mus musculus with 8 samples.

Results

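The 36 genes described here encode the machinery of the cell division cycle: cyclins and their kinases, the helicase subunits and clamp that replicate DNA, enzymes that make deoxynucleotides, and proteins of the spindle and its checkpoint. They are a list of gene names, with no value in the rule, although the list was drawn up with earlier results of these data known. A probe set annotated to the gene alone was found for 35 of them, and Ccnb1 (cyclin B1) had none. Where a gene had several probe sets the brightest represented it. These are 35 of 12393 genes measured in this way on the arrays.

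Left ventricles of 2 inbred strains were compared, C57BL/6, a common laboratory strain, and MRL/MpJ, studied because holes punched in its ears close. All mice were males aged 2 to 4 months. In each strain 1 group was untreated, and 3 groups had the left anterior descending coronary artery tied off (LAD ligation, which causes an infarct of the ventricle) and were sampled 3, 30 or 60 days later. Each of these 8 groups was measured on 1 Affymetrix mouse array. The controls are described as untreated hearts, so no group separates the ligation from the surgery itself. The labels do not say whether an array held RNA of 1 animal or of several, nor which part of the ventricle was taken. The values are signal intensities on a linear scale.

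A cell enters the cycle when D-type cyclins with Cdk4 or Cdk6, and then E-type cyclins with Cdk2, release the E2F transcription factors from the retinoblastoma protein. E2F factors switch on genes of DNA replication. Genes of mitosis are held down in resting cells by the DREAM complex and switched on later by B-MYB with MuvB and FOXM1, both at CHR elements, while CCAAT boxes are bound by NF-Y. In the adult heart most cardiomyocytes have left the cycle, and after an infarct the dividing cells are largely fibroblasts, endothelial cells and leukocytes. The RNA came from bulk tissue, where fewer cells of a type and less RNA per cell cannot be told apart.

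Start-site windows show these elements. RefSeq windows (GRCm38.p6) of 250 bases before to 50 after the start were matched by symbol for 30 of the 36 genes, with 32 windows in all. A CCAAT box (CCAAT, either strand) lay in 75% of the members' windows and in 37.4% of all 32851 windows. An E2F element (TTTCCCGC, TTTGGCGC, TTTCGCGC or TTTGCCGC, either strand) lay in 18.8% and in 2.26%. A CHR element (TTTGAA, either strand) lay in 34.4% and in 17.9%. Matches to different motifs overlapped in 1 of the members' windows. A match is a description of the sequence, not a measured binding site.

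The windows of the 7 genes at an unadjusted p under 0.05 in the day 30 strain comparison below are printed, each as the 250 bases before the start on the gene's strand, with matches to the 3 motifs in capitals. They were chosen after the values were seen. Cdk1 lies at chr10:69352913-69353162 on the minus strand, Top2a at chr11:99024190-99024439 (minus), Cks1b at chr3:89418292-89418541 (minus), Mcm3 at chr1:20820313-20820562 (minus), Cdk4 at chr10:127063285-127063534 (plus), Nusap1 at chr2:119618048-119618297 (plus) and Rrm2 at chr12:24708004-24708253 (plus).
Cdk1: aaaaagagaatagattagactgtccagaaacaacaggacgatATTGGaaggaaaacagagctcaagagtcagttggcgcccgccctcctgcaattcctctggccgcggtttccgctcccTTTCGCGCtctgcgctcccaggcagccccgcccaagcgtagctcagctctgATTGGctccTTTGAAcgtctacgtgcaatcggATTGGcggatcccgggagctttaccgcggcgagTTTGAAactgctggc
Top2a: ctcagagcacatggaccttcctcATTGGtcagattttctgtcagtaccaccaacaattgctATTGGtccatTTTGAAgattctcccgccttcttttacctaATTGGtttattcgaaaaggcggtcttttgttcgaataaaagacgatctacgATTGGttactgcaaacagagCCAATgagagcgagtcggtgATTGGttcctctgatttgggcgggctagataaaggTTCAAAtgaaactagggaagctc
Cks1b: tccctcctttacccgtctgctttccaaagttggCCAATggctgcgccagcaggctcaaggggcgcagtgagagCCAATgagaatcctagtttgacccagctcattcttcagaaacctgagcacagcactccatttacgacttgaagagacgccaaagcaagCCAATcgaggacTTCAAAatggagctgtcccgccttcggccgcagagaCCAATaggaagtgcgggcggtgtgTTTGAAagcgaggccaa
Mcm3: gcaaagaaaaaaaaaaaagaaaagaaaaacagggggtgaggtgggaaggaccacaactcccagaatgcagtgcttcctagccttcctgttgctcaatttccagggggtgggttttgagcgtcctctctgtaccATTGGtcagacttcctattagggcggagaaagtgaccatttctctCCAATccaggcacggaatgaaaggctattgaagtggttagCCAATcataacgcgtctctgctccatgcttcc
Cdk4: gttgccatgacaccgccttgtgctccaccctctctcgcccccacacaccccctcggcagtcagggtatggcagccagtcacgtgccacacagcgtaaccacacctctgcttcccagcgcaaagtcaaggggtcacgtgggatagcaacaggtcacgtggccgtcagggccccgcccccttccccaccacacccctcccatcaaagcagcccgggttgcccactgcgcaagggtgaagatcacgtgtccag
Nusap1: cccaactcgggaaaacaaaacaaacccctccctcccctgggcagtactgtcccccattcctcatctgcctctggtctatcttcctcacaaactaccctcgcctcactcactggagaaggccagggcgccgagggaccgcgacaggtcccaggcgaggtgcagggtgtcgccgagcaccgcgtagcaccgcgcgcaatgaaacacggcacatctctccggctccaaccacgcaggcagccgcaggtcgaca
Rrm2: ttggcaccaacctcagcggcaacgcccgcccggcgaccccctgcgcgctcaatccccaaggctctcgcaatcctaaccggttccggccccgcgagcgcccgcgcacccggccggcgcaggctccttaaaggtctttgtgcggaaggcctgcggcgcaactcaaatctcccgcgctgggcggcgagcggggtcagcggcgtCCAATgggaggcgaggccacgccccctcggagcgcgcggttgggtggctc
The stretches of Cdk1, Top2a and Cks1b hold both CCAAT boxes and CHR elements, and that of Cdk1 also an E2F element. Mcm3, a helicase subunit, has CCAAT boxes in the printed part and its 2 E2F matches after the start, at positions 19 and 38. Rrm2 has a single CCAAT box. The stretches of Cdk4, which was higher in MRL/MpJ in that comparison, and of Nusap1, which was lower, hold none of the 3 motifs.

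Before the results, 1 array has to be set apart. The C57BL/6 day 30 array correlated with the other 7 at Pearson r of 0.844 to 0.877 across genes, while the 21 pairs without it lay between 0.884 and 0.948. Its median signal was 139.5 against 112.8 to 129.55 in the others, and its highest signal 75193.3 against at most 38118.2. The lowest median, 112.8, was that of the MRL/MpJ day 30 array. Fits of the time points and of strain were repeated without each array in turn, the C57BL/6 day 30 array included.

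Many of the genes gave little signal. The median of all values on the 8 arrays was 121, and genes at or above it in at least 2 arrays, whichever these were, were tested. Of the 35 genes 19 passed (54.3%), against 66.1% of all genes. Only 7 genes were at or above 121 in all 8 arrays (20%, against 42.9% of all genes): Ccnd1, Ccnd2, Ccnd3, Mcm7, Pcna, Cdc20 and Rrm1. A further 3 reached it in 1 array and 13 in none. Of the 19, 6 passed through ligated arrays alone (Cdk1, Mcm3, Top2a, Plk1, Rrm2 and Nusap1), with Rrm2 through the day 3 arrays alone, and Aurka passed through C57BL/6 arrays alone. The filter favoured high values of these genes in those arrays, so their differences in that direction, and counts and medians over the 19, are given as descriptions and support nothing.

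The 16 genes that were not tested include several of the usual markers of dividing cells. Mki67, the gene of the Ki-67 antigen, lay between 19.4 and 69.4 over the 8 arrays. The spindle checkpoint kinase gene Bub1b lay between 8.3 and 27.2, and Bub1 between 4.9 and 39.2. Ube2c, a ubiquitin-conjugating enzyme of mitotic exit, did not exceed 15.4. Birc5 (survivin) reached 76.3 and Ccnb2 (cyclin B2) 60.4. Among the genes of the entry into S phase, Ccne1 reached 83.9, Ccne2 50.8 and Cdk6 90.9.

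Of the helicase genes, Mcm2 reached 109.5 and Mcm5 89.2, both in no array above the median. Tk1 (thymidine kinase) reached 33.6 and Tyms (thymidylate synthase) 104.9. The remaining 3 reached the median in 1 array each: Aurkb, a kinase of chromosome attachment, with 139.4 in C57BL/6 on day 3, and Mcm6 and the kinase subunit Cks2, each with 132.8 in MRL/MpJ on day 60. For these genes the signal was too dim for a comparison between groups, which is no statement that the genes are silent.

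**Figure D1:**
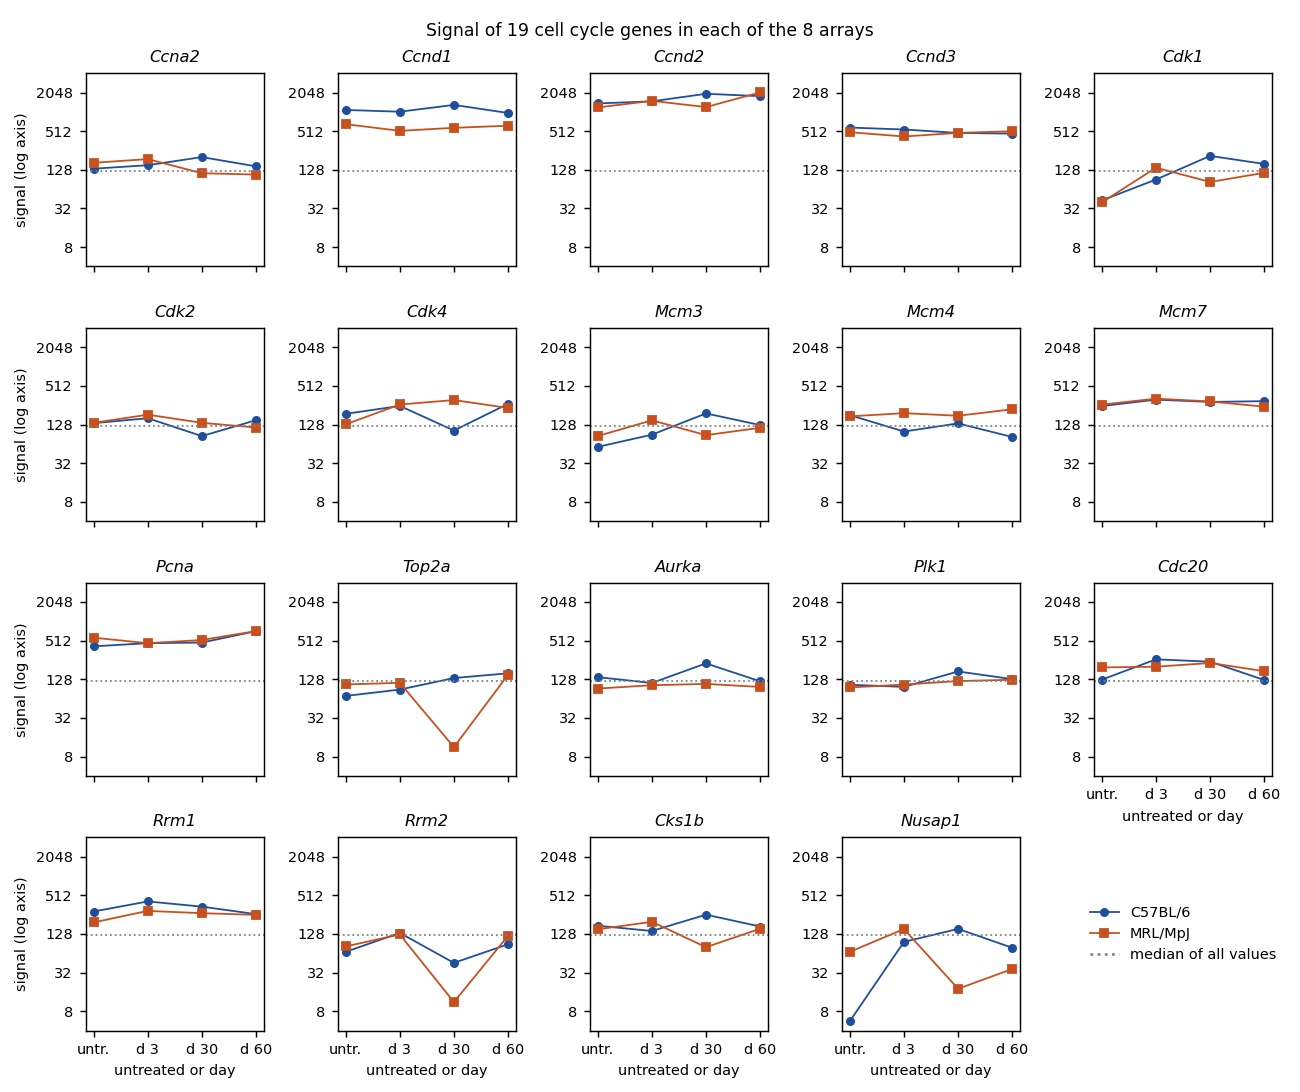
Signal (log axis) of the 19 tested genes in each array, untreated and on days 3, 30 and 60; each point is 1 array, circles C57BL/6 and squares MRL/MpJ, with lines joining arrays of a strain and a dotted line at 121, the median of all values. Cdk1 is near 40 in both untreated arrays and higher in the 6 ligated ones, Ccnd1 is lower in MRL/MpJ at each time point, and Top2a, Rrm2 and Nusap1 are low in MRL/MpJ on day 30.

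The D-type cyclins were above the table median in every array. Ccnd1 (cyclin D1) had a signal of 1097.6 in C57BL/6 and 659.3 in MRL/MpJ when untreated, 1030.2 and 518.5 on day 3, 1314.4 and 577.7 on day 30, and 984.2 and 623.5 on day 60. The 4 MRL/MpJ values all lay below the 4 C57BL/6 values. Ccnd2 (cyclin D2) had 1385.6 and 1199.6 untreated, 1493.7 and 1521.4 on day 3, 1960.8 and 1216.4 on day 30, and 1799.4 and 2059.9 on day 60, again with C57BL/6 first. Both strains were above their untreated array on days 3, 30 and 60. Ccnd3 (cyclin D3) stayed between 423.7 and 583.3, with the strains overlapping.

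Cdk4, the main partner kinase of the D-type cyclins, had 187.8 (C57BL/6) and 128.9 (MRL/MpJ) untreated, 249.5 and 262.7 on day 3, 103.3 and 308.1 on day 30, and 268.3 and 232.1 on day 60. The C57BL/6 day 30 value was the lowest of the 8 and the MRL/MpJ day 30 value the highest. Cdk2, the partner of the E-type cyclins, lay between 84.6 and 182.2, lowest in C57BL/6 on day 30 and highest in MRL/MpJ on day 3.

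Cdk1, the kinase that drives entry into mitosis, had 42.8 and 39.9 in the untreated C57BL/6 and MRL/MpJ hearts, 90.5 and 138.2 on day 3, 211.1 and 82.8 on day 30, and 158.1 and 115.1 on day 60. All 6 ligated arrays were above both untreated arrays. Ccna2 (cyclin A2), which acts with Cdk2 and Cdk1, had 133.3 and 164.8 untreated, 151.2 and 188.3 on day 3, 202.2 and 113.5 on day 30, and 145.1 and 108 on day 60. These values overlapped between untreated and ligated hearts. Cks1b, a small subunit that binds the kinases, had 171.6 and 151.2, then 142.2 and 197.8, then 255.3 and 79.6, then 167 and 154.2 in the same order. The day 30 pair held both its highest and its lowest value.

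Among the genes of replication, Mcm3 had 57.4 and 84.7 untreated, 89 and 148.9 on day 3, 190.7 and 87.5 on day 30, and 125.7 and 113.9 on day 60, C57BL/6 first. Its lowest ligated value, 87.5, was only just above the higher untreated one. Mcm4 had 179.2 and 171.4 untreated, 99.7 and 192.7 on day 3, 133.3 and 175.4 on day 30, and 81.9 and 221.2 on day 60. The untreated pair lay close together and MRL/MpJ was higher at the 3 later times. Mcm7 stayed between 243 and 323.9. Pcna, the sliding clamp of DNA polymerase, had 416.4 and 568.1 untreated, 466.8 and 465.8 on day 3, 477.2 and 523.1 on day 30, and 717.7 and 718.7 on day 60. Both day 60 arrays were above the other 6.

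The 2 subunits of ribonucleotide reductase, which makes deoxynucleotides, differed in pattern. Rrm1, the large subunit, had 286 and 193.6 untreated, 410.4 and 292.3 on day 3, 340.5 and 269.3 on day 30, and 260.3 and 253.9 on day 60, with MRL/MpJ below C57BL/6 at each time. Rrm2, the subunit made in S phase, had 67.3 and 81.7 untreated, 132.7 and 125.5 on day 3, 45.3 and 11.1 on day 30, and 88.4 and 119.8 on day 60. Day 3 was its highest time point and day 30 its lowest in both strains.

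Of the genes of mitosis, Top2a, the topoisomerase that untangles chromosomes, had 70.3 and 106.2 untreated, 88.3 and 112.4 on day 3, 133.6 and 11.2 on day 30, and 158.2 and 150.5 on day 60. The MRL/MpJ day 30 array was the single low one. Nusap1, a spindle microtubule protein, had 5.6 and 67.3 untreated, 96.2 and 152.6 on day 3, 153.4 and 17.9 on day 30, and 77.9 and 36.3 on day 60. Its values spread widely in both strains, and it reached 121 in only 2 arrays.

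The kinase gene Aurka (Aurora A) had 137.9 and 91.6 untreated, 111.9 and 103.2 on day 3, 226.1 and 108.3 on day 30, and 118.8 and 97.1 on day 60. It too was lower in MRL/MpJ at each time. Plk1 (Polo-like kinase 1) lay between 95.2 and 169.2, with its highest value in C57BL/6 on day 30. Cdc20, an activator of the anaphase-promoting complex, had 126.2 and 195.5 untreated, 261.4 and 200.6 on day 3, 240 and 229.2 on day 30, and 124.5 and 170.9 on day 60. The ligated and untreated values of both genes overlapped.

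The first comparison asks how ligated hearts differed from untreated ones. No gene of the list passed the test after adjustment. Cdk1 had the largest difference relative to its error, but it was among the genes tested only because ligated arrays reached 121, and with a filter on the mean signal it is not tested. Values here and below are differences of log2 (signal + 28.6), where the offset of 28.6 is the 20th percentile of all values and shrinks differences between dim values. They come from an additive limma fit of strain and time point over the 8 arrays. With 1 array per group its error rests on how far the strain difference varies between time points (3 residual degrees of freedom). Limma also draws each gene's error toward a value shared by all genes tested, so it rests in part on other genes. The p-values measure that variation between time points and no spread between animals.

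Against the untreated arrays, Cdk1 was 1.01 (SE 0.37) higher on day 3, 1.22 (SE 0.37) higher on day 30 and 1.23 (SE 0.37) higher on day 60. Limma's adjusted p-values (Benjamini-Hochberg over 8195 genes) were 0.698, 0.328 and 0.3. These 3 comparisons share the 2 untreated arrays. Averaged over the 3 days, a contrast added after the data were seen, Cdk1 was 1.15 (SE 0.30) higher, 2.23-fold on this scale, with adjusted p = 0.23 in limma. Without the C57BL/6 day 30 array the average was 0.967 (adjusted p = 0.166 in limma) and the day 30 difference 0.664 (adjusted p = 0.596), which was 1.79 without the MRL/MpJ day 30 array. The day 3 difference was 0.511 without the MRL/MpJ day 3 array and 1.51 without the C57BL/6 one.

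The other genes stood closer to their untreated levels relative to their errors. Nusap1 was 1.39 (SE 0.70) higher on day 3, Rrm2 0.62 (SE 0.33), Rrm1 0.51 (SE 0.24) and Cdc20 0.47 (SE 0.28). Averaged over the ligated arrays, the other probe set of Nusap1 differed by -0.08, against 0.87 for the brightest. Rrm2 was lower on day 30, by -0.93 (SE 0.33, adjusted p = 0.389 in limma). Leaving out the C57BL/6 day 30 array gave -1.45, and leaving out its MRL/MpJ partner gave -0.397. On day 60 the nearest after Cdk1 were Ccnd2 at 0.57 (SE 0.28) and Pcna at 0.54 (SE 0.24), with adjusted p-values of 0.522 and 0.489 in limma. None of these passed.

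Read against all genes tested, the counts were small. On day 3, limma called 0 of the 19 genes and 0% of all genes at an adjusted p under 0.05, and 1 of 19 (Cdk1) and 6.53% of all at an unadjusted p under 0.05. On day 30 it called 0 of 19 and 0.0122% of all, and 2 of 19 (Cdk1 and Rrm2) and 11% unadjusted. On day 60 it called 0 and 0.0366%, and 1 of 19 (Cdk1) and 10.6% unadjusted. For the average of the 3 days it called 0 and 0.195%, and 1 of 19 (Cdk1) and 10.4% unadjusted. All these shares are near the background.

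The median of the 19 genes was 0.22 on day 3 (14 above 0), 0.17 on day 30 (13 above 0) and 0.11 on day 60 (11 above 0). Over all genes tested the medians were 0.02, -0.01 and -0.06, with 52.2%, 49.5% and 42.5% of genes above 0. The day 30 median of the 19 was 0.0281 when the C57BL/6 day 30 array was left out and 0.413 when its MRL/MpJ partner was, and the day 3 median was 0.0934 without the MRL/MpJ day 3 array and 0.349 without the C57BL/6 one. With a filter on the mean signal, which kept 13 genes, the 3 medians were 0.158, 0.0359 and -0.0341. Only Cdk1 and Mcm3 had all 6 ligated arrays above both untreated arrays, 2 of 19 where 6.71% of all genes did, and both passed the filter through ligated arrays alone. None had all 6 below, where 7.11% of all genes did.

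**Figure D2:**
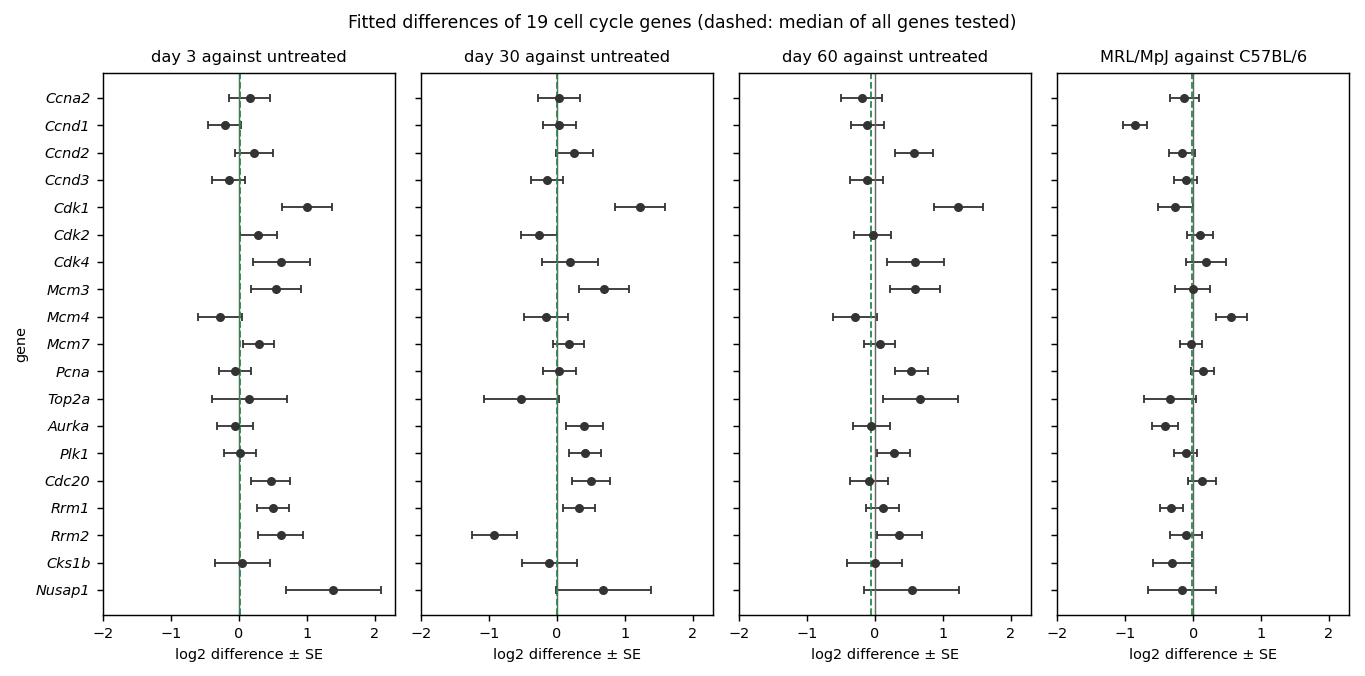
Fitted differences (log2 of signal + 28.6) of the 19 genes with 1 standard error from the additive fit over 8 arrays, for days 3, 30 and 60 against untreated and for MRL/MpJ against C57BL/6; the dashed line is the median of all genes tested. Cdk1 lies near 1 at each time and Ccnd1 at -0.86 between strains, and no gene passed the test.

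Within each strain 1 array was set against 1, with no test. In C57BL/6, Nusap1 was at least 2-fold from untreated on day 3 (1 of 19, against 3.76% of all genes). On day 30 Cdk1, Mcm3 and Nusap1 were (3 of 19, against 14.9%), at 1.75, 1.35 and 2.41 higher. On day 60 Cdk1 and Nusap1 were (2 of 19, against 5.75%), at 1.39 and 1.64 higher. All of these were above untreated. Each Nusap1 value rests on an untreated signal of 5.6, well under the offset, where its other probe set had 98.8.

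In MRL/MpJ, Cdk1 alone was at least 2-fold from untreated on day 3, at 1.28 higher (1 of 19, against 7.61% of all genes), and on day 60, at 1.07 higher (1 of 19, against 7.42%). On day 30 there were 4 of 19, against 5.6%: Cdk4 was higher by 1.10, while Top2a was at -1.76, Rrm2 at -1.47 and Nusap1 at -1.04. The median change of the 19 genes on day 30 was 0.49 in C57BL/6 and 0.02 in MRL/MpJ, and that of all genes 0.06 and -0.06.

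Days 30 and 60 were then set against day 3, to compare the late with the early infarct. Rrm2 was lower at the late times, by -0.90 (SE 0.29, adjusted p = 0.873 in limma), and by -1.16 (adjusted p = 0.193) without the C57BL/6 day 30 array. Only the 2 day 3 arrays brought it into the test, so the filter favoured this direction. Its other, dimmer probe sets were not highest on day 3 in either strain. Rrm2 was the only gene of the 19 at an unadjusted p under 0.05, where 5.54% of all genes were. Limma called 0 of 19 and 0% of all genes after adjustment. The median difference of the 19 genes was -0.08 and that of all genes -0.05. Leaving out the C57BL/6 day 30 array made the former -0.155, and leaving out its MRL/MpJ partner made it 0.12.

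The second question is whether the strains differed over all time points. Ccnd1 was lower in MRL/MpJ in each of the 4 pairs and Mcm4 tended the other way, and neither passed after adjustment. Ccnd1 differed by -0.86 (SE 0.17), that is 0.55 times the C57BL/6 level on this scale (adjusted p = 0.165 in limma). By pair it was -0.71 untreated, -0.95 on day 3, -1.15 on day 30 and -0.64 on day 60. Without the C57BL/6 day 30 array the difference was -0.766 (adjusted p = 0.226 in limma). With an intensity trend in limma's variance prior it passed, at an adjusted p of 0.0492, and over the other alternatives the highest adjusted p was 0.472.

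The probe sets of Ccnd1 did not show it to the same extent. The brightest gave the values above. A second had a mean strain difference of -0.41, with -0.12, -0.01, -0.94 and -0.55 in the 4 pairs. The third had -0.14, with -0.17, -0.27, 0.05 and -0.19. The mean over the 3 probe sets differed by -0.471 (adjusted p = 0.417 in limma).

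Mcm4 was 0.56 (SE 0.23) higher in MRL/MpJ (adjusted p = 0.602 in limma), with pairs of -0.06, 0.79, 0.33 and 1.18 in order of time. Without either day 60 array the difference was 0.355 (adjusted p = 0.934), and without the C57BL/6 day 30 array 0.636 (adjusted p = 0.479). Its other probe set had -0.47, 0.71, -0.65 and 0.13. Limma called 0 of 19 genes and 0.22% of all genes between strains, and 2 of 19 and 7.96% at an unadjusted p under 0.05. MRL/MpJ was below C57BL/6 in 4 of 4 pairs for Ccnd1, Aurka and Rrm1, 3 of 19 where 9.15% of all genes were. Aurka was tested only through C57BL/6 arrays. Rrm1's second probe set had -0.255, 0.09, 0.82 and 0.54 in the 4 pairs, so it did not show the difference. MRL/MpJ was above in 4 of 4 pairs for none of the 19, where 8.53% of all genes were. The strain medians were -0.11 for the 19 genes and -0.02 for all genes, and without the C57BL/6 day 30 array that of the 19 was 0.0162.

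The third question is whether the strain difference was the same at each time. The day 30 pair lay furthest apart: Top2a, Nusap1, Cks1b, Ccnd1 and Cdk1 were at least 2-fold lower in MRL/MpJ than in C57BL/6 and Cdk4 was at least 2-fold higher. The log2 differences of that pair were -2.03 for Top2a, -1.97 for Nusap1, -1.39 for Cks1b, -1.15 for Ccnd1, -1.10 for Cdk1 and 1.35 for Cdk4. Mcm3 (-0.92), Rrm2 (-0.90) and Aurka (-0.90) came next. These are 5 of 19 genes lower, against 9.13% of all genes, and 1 of 19 higher, against 6.15%.

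In the other pairs few genes were as far apart. When untreated only Nusap1 was, at 1.49 higher in MRL/MpJ (1 of 19, against 3.64% of all genes). On day 3 none was (0 of 19, against 6.72%), and on day 60 only Mcm4 (1 of 19, against 3.11%). The median difference of the 19 genes was -0.06 untreated, 0.07 on day 3, -0.68 on day 30 (13 below 0) and -0.10 on day 60. Over all genes it was 0.01, 0.04, -0.09 and -0.01.

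**Figure D3:**
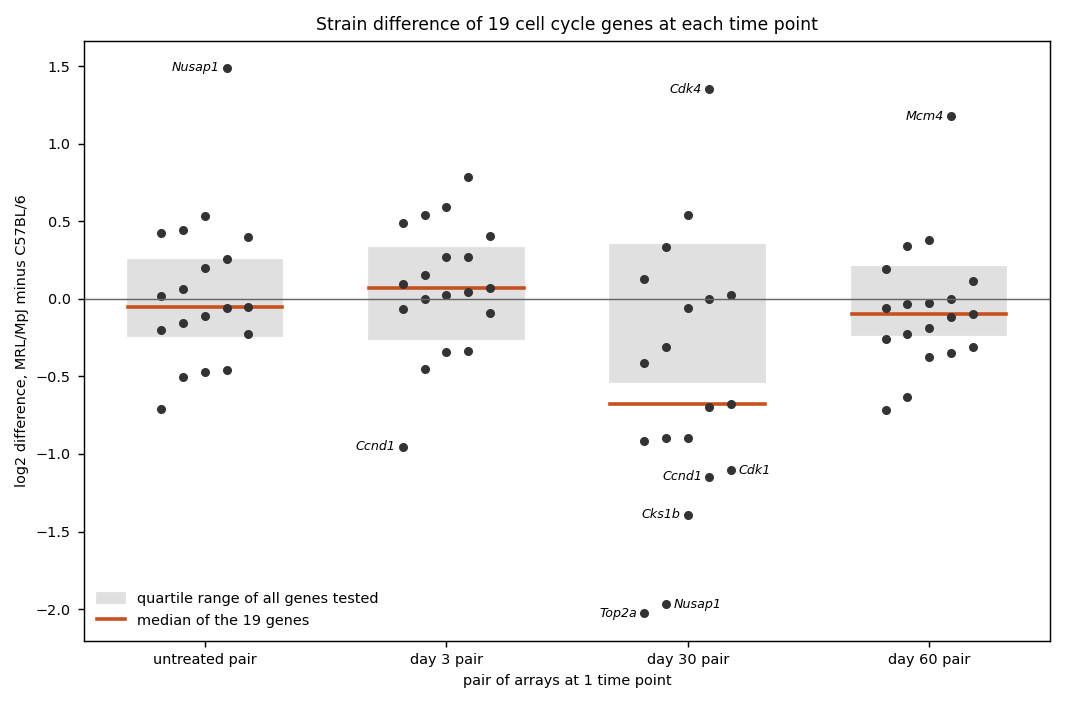
Log2 difference of signal + 28.6, MRL/MpJ minus C57BL/6, of the 19 genes in the pair of arrays at each time point; each point is a gene, the orange line their median, the grey box the range between the quartiles of all genes tested, and genes at least 0.95 from 0 are named. The median is -0.68 on day 30 and between -0.10 and 0.07 in the other pairs.

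A fit with a term for MRL/MpJ on day 30, added after the data were seen, set that pair against the other 3 (2 residual degrees of freedom). Top2a differed by -2.25 (SE 0.35, adjusted p = 0.131 in limma) and Cdk4 by 1.54 (SE 0.35, adjusted p = 0.142). Cks1b differed by -1.44, Mcm3 by -1.21, Cdk1 by -1.12, Rrm2 by -1.06 and Nusap1 by -2.41. Their adjusted p-values in limma were 0.153, 0.185, 0.217, 0.184 and 0.185. Limma called 0 of the 19 and 0% of all genes after adjustment.

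These were the 7 of 19 genes at an unadjusted p under 0.05 (36.8%), where 19.8% of all genes were, itself the highest background of the 8 comparisons. The median of the 19 genes was -0.40 and that of all genes -0.10. The filter favoured the direction found for Nusap1, Cdk1, Mcm3 and Top2a, as described for the pair. The share and the median are therefore descriptions and support nothing. This comparison rests on the C57BL/6 day 30 array, which stands apart as described, and on 1 MRL/MpJ array, and it could not be fitted without either. The part that the state of these arrays had in the result was not tested. When an untreated array, and with it that pair, was left out, the median of the 19 genes was -0.648.

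The same term for day 3 gave less. No gene of the 19 had an unadjusted p under 0.05, where 5.09% of all genes did, and limma called 0 of 19 and 0% of all genes after adjustment. The gene nearest to the threshold was Cdk1, at 1 (SE 0.52, adjusted p = 0.931 in limma). The medians were 0.26 for the 19 genes and 0.05 for all, and that of the 19 was 0.151 without the C57BL/6 day 30 array and 0.355 without either day 60 array.

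Second probe sets bear on the day 30 pair directly. The other probe set of Cks1b was 0.84 higher in MRL/MpJ on day 30, against -1.39 for the brightest, and that of Nusap1 was 0.50 higher, against -1.97. The 2 Nusap1 probe sets were also opposed in the untreated pair, at 1.49 and -1.69. Rrm2's other probe sets had 1.13 and 0.03, against -0.90. Those of Mcm3 had -0.46, -0.41, 0.94 and 0.53, against -0.92.

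In Cdk4, Cdc20 and Ccnd2 the probe sets lay mostly on one side. Those of Cdk4 were all above 0 on day 30, at 1.35, 0.50 and 0.60. Those of Cdc20 were all below 0, at -0.06, -1.23 and -0.18, and so were 6 of the 7 of Ccnd2, between -0.39 and -1.12, with the other at 0.09. Top2a's second probe set was dim, between 6.1 and 20.7, and gave 0.02. Cdk1 had a single probe set, so its difference has no such check. Ccna2's second probe set gave 0.68 against -0.70, Rrm1's 0.82 against -0.31 and Mcm4's -0.65 against 0.33. The other probe sets of Mcm7 had -1.61, -0.07 and 1.06, against 0.02. With the mean over all probe sets of each gene, the median of the day 30 term was -0.213 over the 13 genes that then passed the filter.

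**Figure D4:**
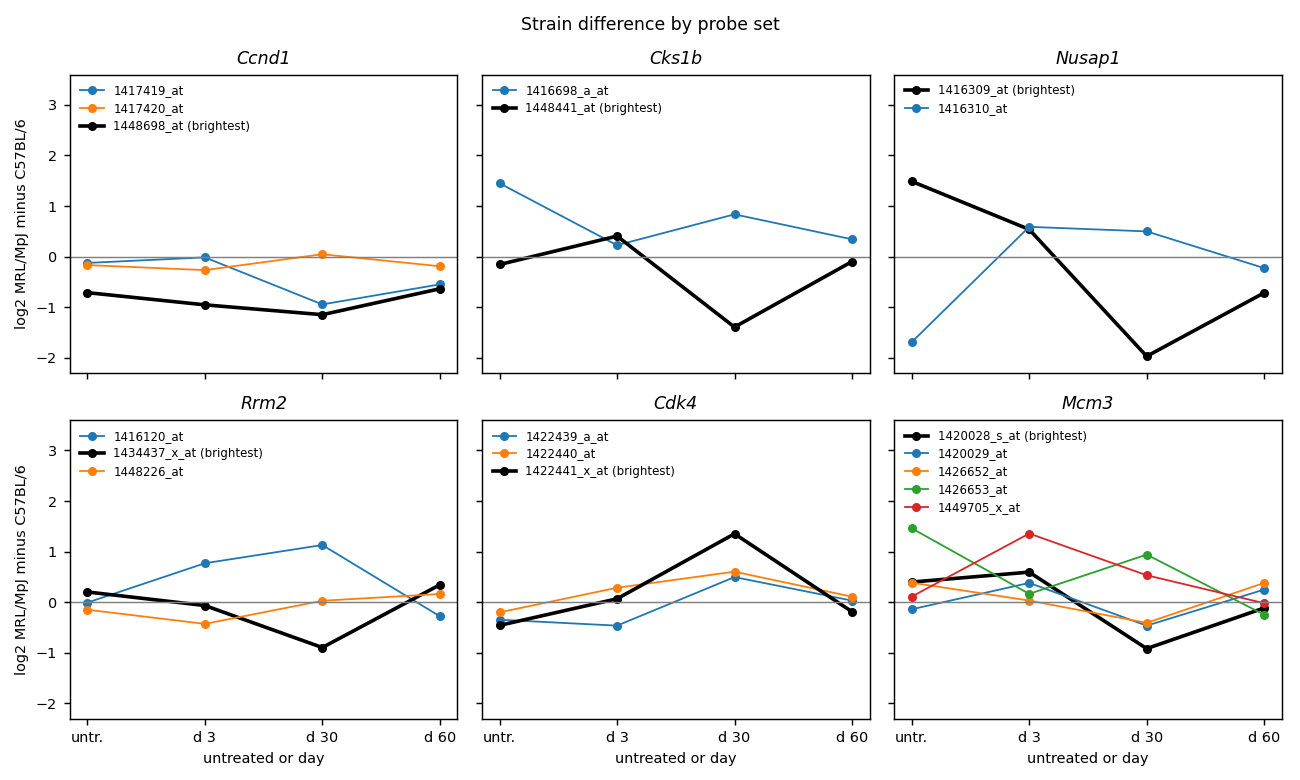
Log2 difference of signal + 28.6, MRL/MpJ minus C57BL/6, at each time point for every probe set of 6 genes; the thick black line is the brightest probe set, which the comparisons use. On day 30 the probe sets of Cdk4 lie on one side of 0, and those of Cks1b, Nusap1 and Rrm2 on both.

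Other genes of the same pathway were read as counts. The lists held 145 further genes (8 CDK inhibitors, 21 regulators around E2F, RB and DREAM, 47 replication genes and 69 mitotic genes), of which 122 were measured and 63 tested. On day 3, 3 were higher and 1 lower at an unadjusted p under 0.05, on day 30 3 and 6, and on day 60 3 and 4. These are 6.35%, 14.3% and 11.1% of the 63, against 6.53%, 11% and 10.6% of all genes. Limma called none of the 63 after adjustment at these times. The medians of the 63 genes were 0.01, -0.01 and -0.09, near those of all genes.

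Smc4, a condensin subunit, was 0.86 (SE 0.28) higher on day 3 and 0.93 (SE 0.28) higher on day 60. The centromere gene Cenpn was 1.31 (SE 0.44) higher on day 3, and the polymerase delta subunit gene Pold2 0.62 (SE 0.25). Tacc3, a spindle protein, was lower by -1.90 (SE 0.44) on day 30 and -1.28 (SE 0.44) on day 60. The transcription factor gene Mycn was at -1.01 (SE 0.26) on day 30 and the kinesin gene Kif4 at -1.48 (SE 0.42). Cdkn1b (p27), an inhibitor of cyclin-dependent kinases, was 0.87 (SE 0.22) higher on days 30 and 60 than on day 3, while Cdca3 was at -0.96 (SE 0.30). Adjusted p-values of all these were between 0.216 and 0.873 in limma. Smc4 and Cenpn reached 121 in ligated arrays alone and Kif4 in untreated arrays alone. Mycn and Tacc3 reached it in no day 30 or day 60 array, and Cdkn1b in no day 3 array. The filter favoured the directions given for these genes, which are descriptions and support nothing.

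Between strains limma called 1 of the 63, where it called 0.22% of all genes. Pttg1 (securin), which holds back the separation of sister chromatids, was lower in MRL/MpJ, at -2.64 (SE 0.16, adjusted p = 0.000704 in limma). Its signals were between 3155.8 and 6151.8 in C57BL/6 and between 543.2 and 862.9 in MRL/MpJ. The alternative settings, the fits with an array left out and the probe set comparison covered the listed members only. Pttg1 is not among them, so its difference has no such check. Pola2 was 1.05 (SE 0.16) higher in MRL/MpJ and Kif23 at -1.17 (SE 0.23), with adjusted p-values of 0.0652 and 0.149 in limma. Pola2 passed the filter through MRL/MpJ arrays alone and Kif23 through C57BL/6 arrays alone. The filter favoured these directions, so the differences of Pola2 and Kif23 are descriptions and support nothing. For the day 30 term 7 were higher and 12 lower at an unadjusted p under 0.05, and Cenpm (-2.36), Prim2 (-2.25) and Ncaph (-1.71) had the smallest p. These 19 are 30.2% of the 63, where 19.8% of all genes were (621 higher and 999 lower). Prim2 passed the filter only through the MRL/MpJ day 3 array (135.6) and the C57BL/6 day 30 array (147.1). That favoured a negative day 30 term, so the Prim2 difference is a description and supports nothing. For the day 3 term 4 were higher and 0 lower, 6.35% where 5.09% of all genes were, with Tacc3 (1.69), Kif4 (1.57) and Foxm1 (1.55) first. None of these passed the adjustment.

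The samples were checked for other cells with marker lists. All 12 cardiomyocyte markers were tested, and their summed signal was 194903.1 to 354729.6, the highest in C57BL/6 on day 30. The 12 fibroblast markers summed to 10539.9 and 11290.6 in the untreated arrays and 27302.4 to 61223.6 in the ligated ones, with 12 of 12 higher and 3 called by limma over the average of the 3 days. The macrophage and monocyte markers summed to 4936.7 and 7193.9 untreated and 9526.8 to 13020.4 ligated, with 12 of 12 tested markers higher. These sums move with ligation as Cdk1 does, and their part in the Cdk1 values was not tested.

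Endothelial sums were 4709.5 and 5759.4 untreated and 4533.2 to 4979.6 ligated, and smooth muscle and pericyte sums 5750.5 and 7536.1 against 6272.6 to 7806. B cell sums were higher in C57BL/6 in all 4 pairs, at 1833.2 and 695 on day 30 and 5532.6 and 1388.8 on day 60. Of these, the immunoglobulin gene Ighm alone gave 1021.2 and 273.7 on day 30 and 4997.4 and 996.4 on day 60. Neutrophil sums were also higher in C57BL/6 in all 4 pairs, at 1041.5 and 564.6 on day 30 and 767.1 and 606.8 untreated. Of the 5 neutrophil markers tested, 4 were lower in MRL/MpJ and 1, Csf3r, was higher. Csf3r had 24.7 in C57BL/6 and 131.5 in MRL/MpJ on day 30, and it reached 121 in MRL/MpJ arrays alone. T cell sums were 470.7 and 254.6 on day 30, the highest of the 8 in C57BL/6, and 247.8 and 314.1 untreated. Erythroid sums were 1052.9 and 321.1 on day 30 and 598.7 and 905 untreated. Their part in the day 30 differences was not tested either. No T cell marker of the 6 measured reached 121 in 2 arrays, and Cd3d stayed at or under 24.6 and Cd4 at or under 20.8. Cd8a (252.2) and Cd3e (157.7) were above it in the C57BL/6 day 30 array alone.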

How the data were processed

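Left ventricle RNA of 8 groups was measured on 1 array each. Per the submitters' processing notes the authors used MAS5, and the deposited values are linear signal intensity for 22626 probe sets. The trimmed mean (2% off each end) was 247.2 to 248.4 in every array, so the deposited values had been scaled as a whole. Detection calls were not used here.

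Probe sets with 1 symbol in the platform annotation (20380) gave 12393 genes. An offset of 28.6 was added before log2, and each gene took its probe set with the highest mean log2. Genes at or above 121 in at least 2 arrays (8195) were tested in limma 3.58.1 (R 4.3.3; lmFit, eBayes, Benjamini-Hochberg, call at 0.05), all 8 arrays together, and the code was tested on simulated data. The number of arrays limits the precision.

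The members and lists were chosen with earlier results of these data known. Every tested member is named, plus 3 pathway genes with the smallest p per comparison. The average over ligated days and the day 30 term were added after the data were seen. Alternatives changed the offset, filter, normalization, variance trend and probe set rule and left out each array.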

Additional observations from a re-analysis of the deposited data

How the results depend on the processing

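Of 116 alternative medians 8 changed sign. For single genes 192 kept their direction and side of the threshold and 1 crossed it. With an intensity trend limma called 1 gene of the list between strains (Ccnd1, adjusted p = 0.0492; -0.862) in place of 0. The day 30 strain term had a median of -0.399, and -0.648 without either untreated array (-0.648 to -0.405 over arrays left out). The cause was not tested. Across alternatives the median of days 30 and 60 against day 3 ran from -0.201 to 0.12, that for strain ran from -0.212 to 0.0162 and that for day 60 from -0.0341 to 0.216. Counts over all genes moved by more than 1.5 times: for strain from 18 to between 7 and 43, for ligated against untreated from 16 to between 0 and 104, for day 30 from 1 to between 0 and 186, and for day 60 from 3 to between 0 and 75. Counts over all genes that were 0 moved too. With an intensity trend that for day 3 against untreated was 26 and that for the day 30 strain term 5. The labels give no replicate numbers, so no replicate block was fitted. The strain comparison pairs the arrays by time point. Leaving out an array leaves its partner to set only its own time point. Signals near the offset limit what Nusap1, Rrm2 and Top2a can show.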
